A study of Homo sapiens with 4 samples.

Results

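SQSTM1 and 9 other genes of autophagy were followed in K562 cells, a human erythroleukemia cell line, after 4 h with AC-1041, a thalidomide analog that carries a morpholine at position 4 of a trifluorophthalimide. The members were SQSTM1, MAP1LC3B, GABARAP, GABARAPL1, GABARAPL2, WIPI1, ATG5, ATG12, BECN1 and ULK1, and they were found by gene name, or by the current symbol of the transcript accession given for a probe, among the 14297 gene probes of the arrays. These probes carry 14248 gene names. Of the 10 genes, 8 had a probe, 1 probe each. ATG5 and ATG12 were not analysed here. RNA of drug-treated cells was hybridised together with RNA of control cells on each of 4 two-colour Agilent arrays, with Cy5 marking the treated RNA on arrays 1 and 2 and Cy3 marking it on arrays 3 and 4. The labels call the control cells untreated, and the methods of the study describe a DMSO control. The dose is not on the labels. The methods name 1 dose and the results an IC50 concentration. Both groups were the same cell line with no genetic change, and which of the quadruplicate cultures went on which array is not stated, so that p-values may measure technical spread. Each value is the level in treated cells relative to control cells on 1 array, on the log2 scale, where 1 is a doubling and values above 0 mean a higher level in treated cells.

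Autophagy delivers cytoplasmic material to the lysosome in a vesicle with a double membrane. The ULK1 kinase complex starts the process, a lipid kinase complex that holds BECN1 then marks the membrane with phosphatidylinositol 3-phosphate, and WIPI proteins such as WIPI1 bind that lipid. ATG12 and ATG5 form part of the enzyme that attaches the small ubiquitin-like proteins of the ATG8 family (MAP1LC3B, GABARAP, GABARAPL1 and GABARAPL2) to the growing membrane. Cargo receptors, of which SQSTM1 (p62) is the best known, bind ubiquitin on the cargo and ATG8 proteins on the membrane, and are degraded along with the cargo. The mRNA level of these genes is not a measure of autophagic flux.

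The promoters of GABARAPL1 and WIPI1, the members with the highest log2 ratios, of SQSTM1, and of MAP1LC3B are shown because all 4 genes were called higher in treated cells. They are the 250 bases before a RefSeq start site on GRCh38.p14, written 5′ to 3′ on the strand of the gene, and capitals mark a motif found by letters. SQSTM1 has 3 windows in the table and the third is shown. The positions are chr12:10212627-10212876 (plus strand) for GABARAPL1, chr17:68457497-68457746 (minus strand) for WIPI1, chr5:179820655-179820904 (plus strand) for SQSTM1 and chr16:87392086-87392335 (plus strand) for MAP1LC3B.
GABARAPL1: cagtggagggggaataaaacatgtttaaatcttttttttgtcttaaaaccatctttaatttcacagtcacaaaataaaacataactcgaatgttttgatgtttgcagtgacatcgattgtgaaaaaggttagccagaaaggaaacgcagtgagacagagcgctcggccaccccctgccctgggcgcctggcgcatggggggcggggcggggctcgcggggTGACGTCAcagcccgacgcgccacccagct
WIPI1: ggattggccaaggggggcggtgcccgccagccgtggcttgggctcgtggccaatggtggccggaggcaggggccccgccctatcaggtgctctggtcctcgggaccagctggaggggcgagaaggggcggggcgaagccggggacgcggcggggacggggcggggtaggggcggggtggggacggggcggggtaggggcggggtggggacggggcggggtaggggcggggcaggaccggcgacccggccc
SQSTM1: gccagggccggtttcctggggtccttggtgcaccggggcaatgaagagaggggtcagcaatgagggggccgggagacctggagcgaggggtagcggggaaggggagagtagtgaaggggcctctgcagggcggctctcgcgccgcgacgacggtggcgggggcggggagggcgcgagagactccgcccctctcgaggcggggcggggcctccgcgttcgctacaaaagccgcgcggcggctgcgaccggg
MAP1LC3B: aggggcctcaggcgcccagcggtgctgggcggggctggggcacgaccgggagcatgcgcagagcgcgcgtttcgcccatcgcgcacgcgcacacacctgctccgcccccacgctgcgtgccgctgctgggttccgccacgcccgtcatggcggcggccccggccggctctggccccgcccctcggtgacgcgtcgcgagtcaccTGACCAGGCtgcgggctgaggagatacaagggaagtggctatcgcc

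All 10 members had a promoter window of 300 bases (250 before and 50 after the start), 13 windows in all. On both strands, these were searched for TGACNNNGC (the core of the antioxidant response element), CACGTG (the E-box inside the lysosomal CLEAR element), TGATGNAA (a C/EBP-ATF composite element) and TGACGTCA (the cyclic AMP response element, whose letters overlap none of the others in these windows and which was added after the sequences were seen). Among 35116 windows of all genes, 13.3% held TGACNNNGC, 7.26% CACGTG, 3.62% TGATGNAA and 1.85% TGACGTCA. Only 2 of the 13 member windows held a match to these letters. In MAP1LC3B, TGACNNNGC began 46 bases before the start, and in GABARAPL1, TGACGTCA began 30 bases before it. The windows of SQSTM1, WIPI1 and ULK1 held no match to these letters. The GC content of the member windows ran from 27.7%, in a window of ATG5, to 79.7%, in that of WIPI1, with a median over all windows of 58.7%. These matches describe the letters and name no binding site.

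The arrays differed by dye orientation. Probes well above background numbered from 5941 to 7403 per channel on arrays 1 and 2 and from 8982 to 9515 on arrays 3 and 4, and 8.08% of the probes of array 1 were marked as outlier spots, against at most 2.33% on the others. No spot was saturated. Across probes, the log2 ratios correlated with r = 0.81 between arrays 1 and 2 and 0.95 between arrays 3 and 4, but with r from -0.29 to -0.086 between arrays of different orientation. Of 9 erythroid markers with a probe, 7 (HBG1, HBE1, HBA1, HBZ, TFRC, GATA1 and KLF1) were well above background in all 8 channels. The B cell marker MS4A1 and the liver gene ALB were so in none. All 4 arrays lay on the same slide, and orientation cannot be told apart from the quality of the arrays. The number of arrays limits the precision.

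The levels of 5 of the 8 members were higher in AC-1041-treated cells at an adjusted p under 0.05 (limma with a treatment and a dye term, Benjamini-Hochberg over all 8852 probes tested). WIPI1 and GABARAPL1 had the largest log2 ratios, both 0.83, followed by ULK1 (0.60), SQSTM1 (0.59) and MAP1LC3B (0.49). For GABARAP, BECN1 and GABARAPL2, the values were 0.13, 0.11 and 0.07 and did not pass. These are levels in bulk RNA, in which more expressing cells and more RNA per cell cannot be told apart. No member was lower in limma, nor was any at an unadjusted p under 0.05. Over all probes tested 24.3% were called higher and 13% lower, so that 65.2% of calls were higher (79.9% when arrays were centred on their median in place of loess). The median log2 ratio was 0.54 over the 8 members and 0.017 over all probes. All 8 members passed the filter on dim probes, and the levels in both channels entered it. Of the 5 called genes, 3 (GABARAPL1, WIPI1 and ULK1) were above 0 on each of the 4 arrays. Over all probes, 1148 of the 2155 called higher were so, which is 13% of all probes tested. Without the dye term limma called none of the members (3 at an unadjusted p under 0.05), and over all probes it called 52 higher and 4 lower. With the dye term, standard errors come from the spread within each orientation, and each SD covers all 4 arrays.

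**Figure D1:**
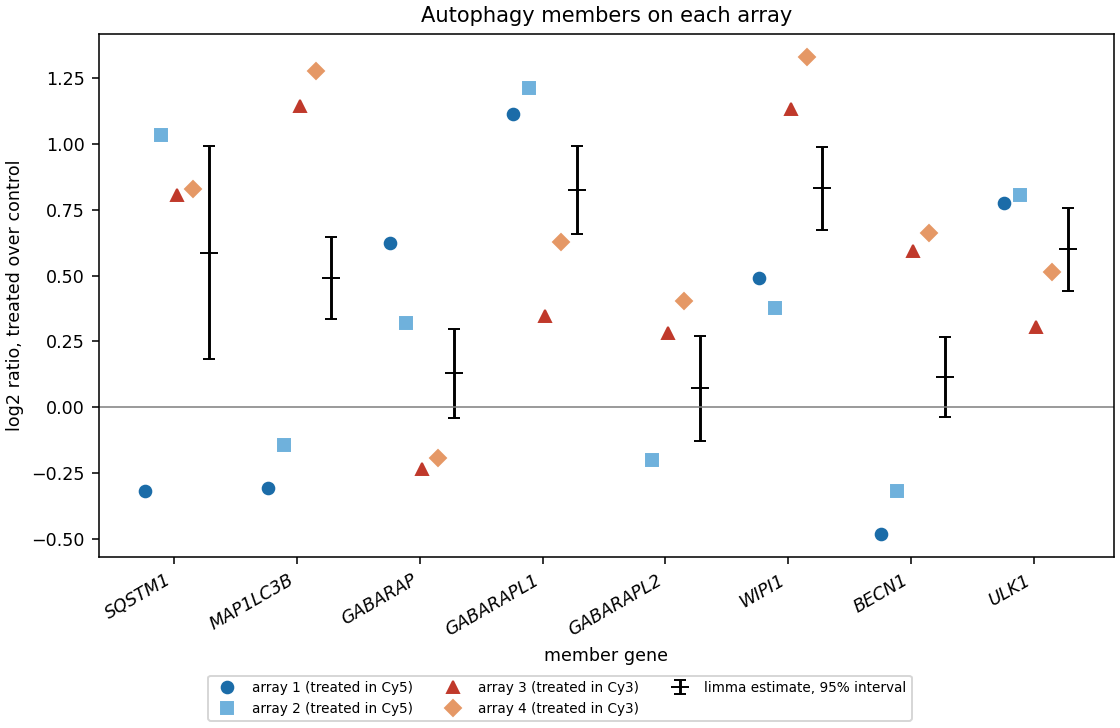
The log2 ratio, treated over control (vertical axis), of the 8 members on each array, with coloured points for arrays 1 to 4 and a black bar for the limma estimate with its 95% interval. The points of GABARAPL1, WIPI1 and ULK1 all lie above 0, while those of MAP1LC3B and BECN1 lie below 0 on arrays 1 and 2 and above 0 on arrays 3 and 4, and those of GABARAP the other way round.

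ULK1 encodes the kinase that starts autophagosome formation, and its probe matches hg18 chromosome 12, 130973529 to 130973588 (plus strand). After loess and scaling between arrays, its normalized signal in treated cells was 13237, 14758, 13286 and 13464 on arrays 1 to 4, and in control cells 7730, 8439, 10761 and 9419. Every treated channel was therefore brighter than every control channel, and the control channels of arrays 3 and 4 were the brighter ones. The log2 ratios were 0.78, 0.81, 0.30 and 0.52, a mean of 0.60 ± 0.24 (SD, n = 4 arrays), which is 1.52-fold. In limma the standard error was 0.068, with an adjusted p of 0.00033. Its dye term had an adjusted p of 0.041.

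BECN1, the scaffold of the lipid kinase complex, has its probe on chromosome 17 of hg18 from 38215877 to 38215936 (minus strand). Its normalized signal was 7388, 8690.0, 13157 and 12266 in treated cells and 10307, 10835, 8713 and 7755 in control cells of arrays 1 to 4. The treated and control channels overlapped, with treated below control on arrays 1 and 2 and above it on arrays 3 and 4. Its log2 ratios were -0.48, -0.32, 0.59 and 0.66, and the limma estimate was 0.11 with a 95% interval from -0.04 to 0.27 and an adjusted p of 0.213. The dye term of BECN1 was past the threshold (adjusted p = 0.00037), as it was for 58.2% of all probes.

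WIPI1, which binds phosphatidylinositol 3-phosphate on the forming membrane, has its probe on chromosome 17 of hg18 from 63929049 to 63929108 (minus strand). Its normalized signal was 2081, 1903, 2656 and 2672 in treated cells and 1481, 1466, 1209 and 1062 in control cells. The channels did not overlap, which also held for GABARAPL1 and ULK1 and, over all probes tested, for 6.42% with treated above control. The control spot of array 2 was not well above background. The log2 ratios of 0.49, 0.38, 1.14 and 1.33 gave a mean of 0.83 ± 0.47 (SD, n = 4 arrays), which is 1.78-fold, with a limma standard error of 0.069 and an adjusted p of 7.8e-05. The ratio was larger with the treated RNA in Cy3 (mean 1.23) than in Cy5 (mean 0.43), and the dye term passed (adjusted p = 0.0015).

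**Figure D2:**
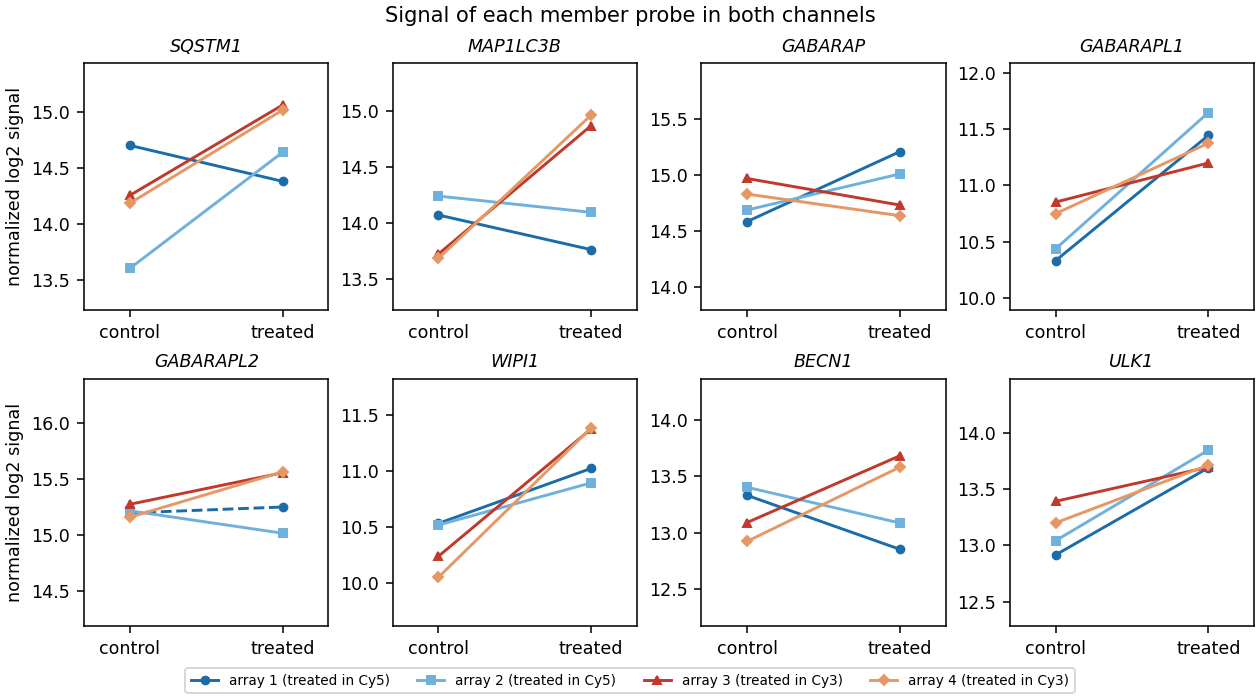
The normalized log2 signal (vertical axis, the same span in every panel) of each member probe in the control and the treated channel, 1 line per array, a dashed line marking the outlier spot of GABARAPL2. All 4 lines rise for GABARAPL1, WIPI1 and ULK1, whereas for SQSTM1 the line of array 1 falls from the highest control signal.

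Of the ATG8 family, GABARAPL1 had the largest log2 ratio. It is 1 of the GABARAP-type proteins that bind cargo receptors and the ULK1 complex, and its probe matches hg18 chromosome 12 from 10265943 to 10266002 (plus strand). The normalized signal was 2789, 3212, 2353 and 2659 in treated cells and 1287, 1384.5, 1848 and 1721 in control cells, without overlap. The log2 ratios were 1.12, 1.21, 0.35 and 0.63, a mean of 0.83 ± 0.41 (SD, n = 4 arrays) or 1.77-fold, with a limma standard error of 0.073 and an adjusted p of 0.00010. The ratio was larger in Cy5 (mean 1.16) than in Cy3 (mean 0.49), opposite to WIPI1, and the dye term passed (adjusted p = 0.0045).

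MAP1LC3B, the LC3 protein used as the standard marker of autophagosomes, has its probe on chromosome 16 of hg18 from 85994259 to 85994318 (plus strand). In treated cells its normalized signal was 13929, 17539, 29975 and 31999, and in control cells 17249, 19394, 13559 and 13205. Treated cells were dimmer on arrays 1 and 2 and brighter on arrays 3 and 4, so that the channels overlapped. The log2 ratios were -0.31, -0.15, 1.14 and 1.28, with a mean of 0.49 ± 0.83 (SD, n = 4 arrays). MAP1LC3B was called higher (limma standard error 0.068, adjusted p = 0.00088), although its sign differed between orientations, with means of -0.23 in Cy5 and 1.21 in Cy3. A sign that differed between orientations was found in 61.7% of all probes. The dye term takes up that difference (adjusted p = 7.9e-05), and the call rests on the agreement of arrays within an orientation.

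GABARAP and GABARAPL2, the other GABARAP-type proteins, were not called. The GABARAP probe spans chromosome 17 of hg18 from 7084916 to 7085397 (minus strand), and its log2 ratios were 0.62, 0.32, -0.24 and -0.19. These were above 0 in Cy5 and below 0 in Cy3, and the limma estimate was 0.13 with a 95% interval from -0.04 to 0.30 and an adjusted p of 0.203. The treated signal ran from 25469 to 37819 and the control signal from 24559.7 to 32051.5. The GABARAPL2 probe matches hg18 chromosome 16 from 74169049 to 74169108 (plus strand). Its spot on array 1 was left out as an outlier, and the other 3 arrays gave -0.20, 0.28 and 0.40, for an estimate of 0.07 with a 95% interval from -0.13 to 0.27 (adjusted p = 0.547).

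SQSTM1, the ubiquitin-binding cargo receptor, is also a signalling scaffold that binds KEAP1, the inhibitor of the oxidative stress factor NFE2L2. Its probe matches hg18 chromosome 5 from 179196315 to 179196374 (plus strand). The normalized signal was 21367, 25579, 34251 and 33193 in treated cells and 26677, 12488, 19599 and 18673 in control cells of arrays 1 to 4. The control channel of array 1 stood above the other control channels and above the treated channels of arrays 1 and 2, so that the groups overlapped. As deposited, before any correction, the spot of array 1 read 26112.5 for treated and 27202 for control RNA, and that of array 2 read 32350.4 and 10216. The log2 ratios were -0.32, 1.03, 0.81 and 0.83, a mean of 0.59 ± 0.61 (SD, n = 4 arrays) or 1.50-fold. In limma the standard error was 0.18, the 95% interval 0.18 to 0.99 and the adjusted p 0.031. SQSTM1 was the only called member whose dye term did not pass (adjusted p = 0.29), and its arrays 1 and 2, of the same orientation, differed from each other. Without array 1 the estimate was 0.93 (adjusted p = 1.3e-09), without array 2 it was 0.25 (adjusted p = 0.018), and without array 3 or array 4 the call was lost (adjusted p = 0.119 and 0.148). The exact sign-flip permutation test over the 4 arrays (two-sided) gave p = 0.25 for SQSTM1 and p = 0.5 for MAP1LC3B. For GABARAPL1, WIPI1 and ULK1, the exact sign-flip permutation test gave p = 0.125, the smallest that 4 arrays allow.

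**Figure D3:**
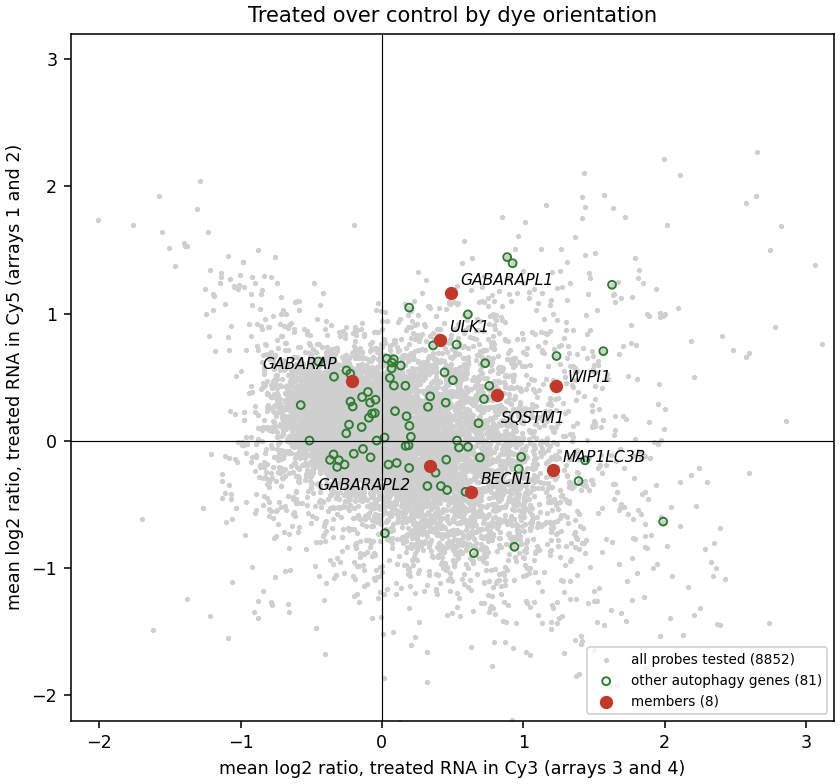
The mean log2 ratio of arrays with the treated RNA in Cy3 (horizontal axis) against that in Cy5 (vertical axis), for all probes tested (grey), 81 other autophagy genes (green circles) and the 8 members (red), with 6 probes outside the axes. GABARAPL1, ULK1, SQSTM1 and WIPI1 lie above 0 on both axes, and GABARAP, GABARAPL2, BECN1 and MAP1LC3B lie on opposite sides of 0.

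The 4 log2 ratios of SQSTM1 were set against those of 1984 other probes that were called and well above background in both channels of every array. The closest, by the root mean square difference over 4 arrays, was RRAGC (0.245), a small GTPase that recruits mTORC1 to the lysosome, with log2 ratios of 0.12, 1.02, 0.70 and 1.02. Next came MTF1 (0.284), the metal-responsive transcription factor, with -0.01, 0.63, 0.60 and 0.68, and the splicing factor SLU7 (0.307). ZNF764 and HMGCS1, the latter an enzyme of cholesterol synthesis, both lay at 0.317. In MTF1, SLU7 and HMGCS1 as in SQSTM1, array 1 was the only array below 0, at -0.01 in MTF1 and -0.05 in HMGCS1. In each of the 5 genes array 1 had the lowest value. The genes were chosen for their closeness to SQSTM1, so that a low array 1 is built into the choice.

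Outside the members, 118 further genes of the pathway were listed, 89 had a probe and 81 were tested. Of these 81 genes, 32 were higher and 3 lower in treated cells. Their median was a log2 ratio of 0.15, beside 24.3% and 13% of all probes and their median of 0.017. As for the members, the list was chosen with earlier results of these arrays known, and it is described by counts with no test. Of the 32 genes called higher, 19 were so on each of the 4 arrays, beside 1148 of the 2155 called higher over all probes. Without the dye term limma called 1 pathway gene higher and 0 lower (17 and 0 at an unadjusted p under 0.05).

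In the initiation complex, RB1CC1 (FIP200), the scaffold that holds ULK1, was higher with log2 ratios of 0.59, 0.74, 1.27 and 1.20 on arrays 1 to 4 (limma estimate 0.95, adjusted p = 3.4e-05), and ULK3, the other gene tested, had 0.15 and did not pass. Of 5 tested genes of the lipid kinase complex other than BECN1, 2 did not pass and 3 were higher, beside 24.3% of all probes. These were PIK3C3, the catalytic subunit, at 0.53, UVRAG, the subunit of the endosomal form, at 0.49, and NRBF2 at 0.30, each on all 4 arrays. Limma called no gene of these complexes lower, also at an unadjusted p under 0.05. Of 3 genes of membrane supply, VMP1 (0.64) and the related TMEM41B (0.28) were called higher, but both were below 0 on arrays 1 and 2. None of the 9 listed conjugation enzymes was analysed, and of the ATG8 family MAP1LC3A had a log2 ratio of 0.18 that did not pass (adjusted p = 0.178).

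Of 12 cargo receptors tested beside SQSTM1, 7 were higher, 1 was lower and 4 did not pass. Over all probes tested, 24.3% were called higher and 13% lower. Of the 7 receptors, 3 were higher on each of the 4 arrays. CCPG1, a receptor for the endoplasmic reticulum, had log2 ratios of 0.70, 0.71, 1.52 and 1.61, with a limma estimate of 1.14 and an adjusted p of 1.3e-05. NBR1, the receptor most like SQSTM1 in its domains, had 1.07, 0.92, 0.46 and 0.76, with an estimate of 0.80 and an adjusted p of 0.00014. STBD1, which binds glycogen, rose by 0.38 on the log2 scale, was well above background on 2 arrays in each channel and was also above 0 on all 4 arrays. TAX1BP1 (0.67), TOLLIP (0.43), CALCOCO2 (0.37) and OPTN (0.27) were called higher without that pattern, TAX1BP1 having 3 arrays, and the other 3 being below 0 on at least 1. TEX264, another receptor for the endoplasmic reticulum, was lower, with an estimate of -0.26 and values of -0.15, -0.15, -0.17 and -0.56. BNIP3, BNIP3L, NCOA4 and PHB2, which serve mitochondria and ferritin, had values from -0.018 to 0.16 and did not pass.

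Among the proteins that SQSTM1 binds, 2 of 6 tested were higher and 1 lower, beside 24.3% and 13% of all probes. TRAF6, a ubiquitin ligase of the NF-κB pathway, had log2 ratios of 1.21, 1.58, 0.72 and 1.13, with a limma estimate of 1.16 and an adjusted p of 6.5e-05. RIPK1, a kinase of the same pathway, had an estimate of 0.32 and was above 0 on all 4 arrays. NFE2L2 was called lower, at -0.35 (limma adjusted p = 0.0051), with -0.78 and -0.67 on arrays 1 and 2 but 0.13 and -0.08 on arrays 3 and 4. Its spots were well above background on 2 arrays for treated and on 3 for control RNA. KEAP1 had 0.14 and did not pass (adjusted p = 0.151).

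In the fusion machinery 2 of 10 genes were higher, VPS39 at 0.56, whose control spots exceeded background on 2 arrays, and VPS33A at 0.25, both subunits of the tethering complex HOPS. Limma called none of them lower (1 at an unadjusted p under 0.05). Of 20 lysosomal genes, 5 were higher, 1 was lower and 14 did not pass. GLA and the calcium channel MCOLN1 were higher on all 4 arrays, at 0.35 and 0.34, and the protease CTSB was lower at -0.26, with values from -0.53 to 0.10. The membrane proteins LAMP1 and LAMP2 had -0.22 and 0.04 and did not pass. The shares called higher in both lists lay near the 24.3% of all probes.

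Of 22 regulators, 10 were higher and none was lower in limma (1 at an unadjusted p under 0.05). Over all probes the shares called were 24.3% higher and 13% lower. TRIB3, a pseudokinase that inhibits AKT, had the largest log2 ratio of all pathway genes, 1.43, with 0.94, 1.52, 1.67 and 1.58 on arrays 1 to 4 (limma adjusted p = 2.7e-05). The sestrins SESN2 and SESN1, inhibitors of mTORC1 signalling, had 1.16 and 0.60, and SESN3 had -0.03 and did not pass. FOXO3, a transcription factor with autophagy genes among its targets, had 0.62, and TP53INP2, a nuclear ATG8-binding protein well above background on 2 arrays in each channel, had 0.49. All 5 called genes among these were above 0 on each array. TFEB, well above background on 2 arrays in each channel, and TFE3, both transcription factors of lysosomal genes, were called higher at 0.36, and their relative MITF had 0.05 and did not pass. MTOR had 0.04 and the AMPK subunit PRKAA1 had 0.11, and neither passed.

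**Figure D4:**
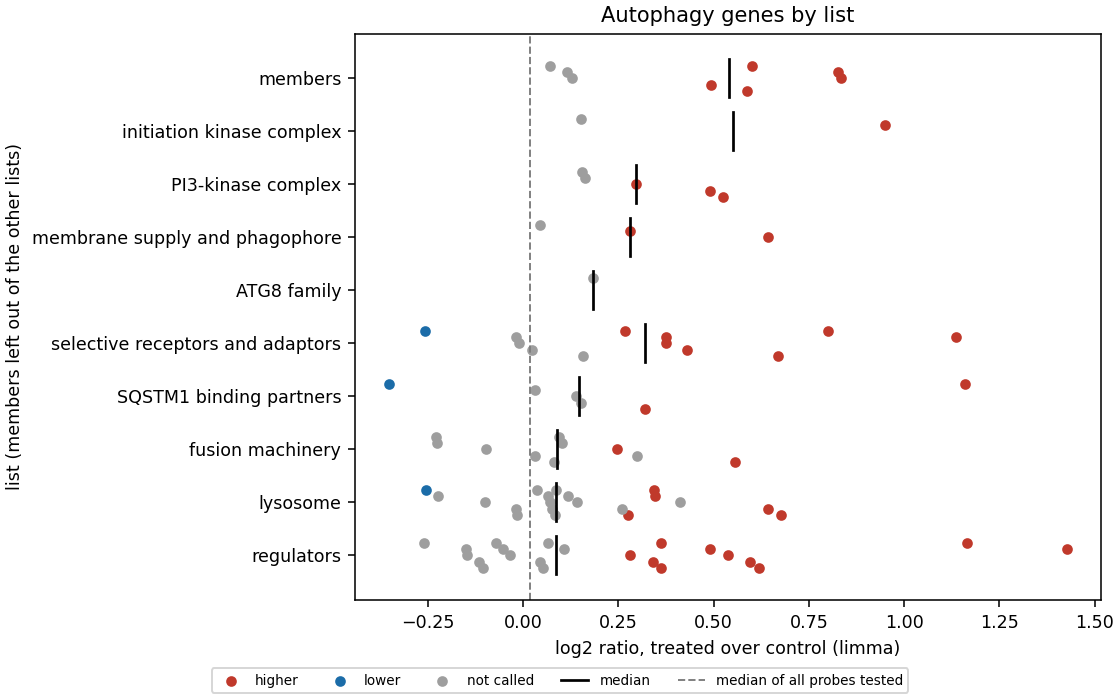
The limma log2 ratio, treated over control (horizontal axis), of every tested gene, by list, coloured by call at an adjusted p under 0.05, with the median of each list as a black bar and that of all probes (0.017) as a dashed line. The medians run from 0.085 for the lysosome to 0.55 for the initiation complex, which holds 2 genes, and that of the members is 0.54.

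Across 15 other ways of processing the arrays, the estimates of GABARAPL1, WIPI1, ULK1 and MAP1LC3B stayed between 0.45 and 0.95, and in every one of those that could be fitted, other than the fit without the dye term, they passed. SQSTM1 passed in 8 of 15 and ran from 0.25 to 0.93. With the signals as processed by Feature Extraction it was 0.66 with a limma adjusted p of 0.053, and with outlier spots kept it was 0.59 with an adjusted p of 0.053.

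**Figure D5:**
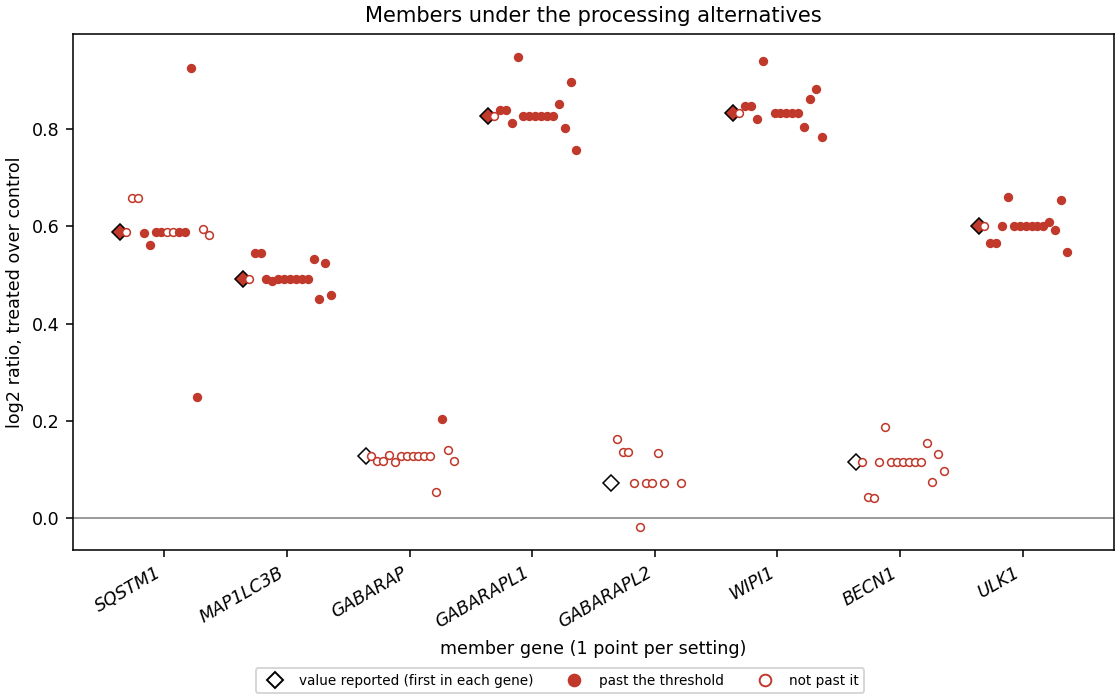
The log2 ratio of each member (vertical axis) as reported (diamond) and under up to 15 alternatives (circles), filled where the adjusted p passed the threshold of that setting. SQSTM1 spreads from 0.25 to 0.93 with 7 open circles, and GABARAP, GABARAPL2 and BECN1 stay near 0 with 1 filled circle, that of GABARAP without array 2 (0.20).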

How the data were processed

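RNA of K562 cells given AC-1041 (4 h) and of control cells was measured on 4 two-colour arrays. The authors scanned them on an Agilent scanner and read the images with Feature Extraction 9.5.1.1. They deposited the mean intensity of each spot and its local background per channel. Deposited with these were background- and dye-corrected intensities, log10 ratios made from those, and flags for background and outliers. The authors' series table holds the same log10 ratios, read as treated over control.

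From the raw intensities, background was corrected by normexp (offset 50), ratios were normalized by loess (span 0.3), and outlier spots were left out. Channel signals were scaled between arrays by average intensity (Aquantile). Probes that 2 or more arrays flagged as well above background, in either channel, were fitted with limma 3.58.1 in R 4.3.3, with treatment and dye terms, on log2 ratios computed from the deposited intensities. Of 14297 gene probes, 12002 took their symbol from RefSeq (GRCh38.p14) by the first transcript accession and 162 by another one. Probe positions are the files' own, on hg18. The fit was tested on simulated data, in which the noise was drawn independently for each of the 4 arrays. That test cannot show whether the real arrays are technical replicates, nor tell orientation apart from array quality.

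The members and lists were chosen with earlier results of these data known. Named were all members, up to 5 genes per list called and moving the same way on all 4 arrays, and the 5 genes closest to SQSTM1. Other genes were named after their values were seen. Alternatives covered the starting signal, background, normalization, filters, threshold, dye term, arrays averaged as pairs of opposite dye, and each array left out. Protein sequences were not used here, and 1 marker of another lineage is not reported here.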

Additional observations from a re-analysis of the deposited data

Results flagged for a closer look

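Over 4 arrays, the lowest or highest value stood apart from the rest, by Dixon's ratio of the gap to the range, in 3 of 25 genes examined. For exchangeable arrays chance gives about 1 in 20, but these arrays fall into pairs by dye orientation, and the genes outside the members were named for having the same sign on all 4 arrays, so that rate does not apply here. In SQSTM1, the only one of 7 members examined, array 1 was low (-0.32 against 0.81 to 1.03 on the others), with a ratio of 0.831. In SESN2, array 2 was high (1.91 against 0.79 to 0.98), with a ratio of 0.836. In TEX264, array 4 was low (-0.56 against -0.17 to -0.15), with a ratio of 0.941. Array 1 had the largest share of outlier spots (8.08%). Its SQSTM1 spot was not marked as an outlier and was well above background in both channels. The cause of the low value was not tested.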

How the results depend on the processing

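Leaving out the dye term changed most. There limma called 52 probes higher and 4 lower, 0 members, and 1 pathway gene higher and 0 lower, and the adjusted p was 0.120 for GABARAPL1, 0.123 for ULK1, 0.143 for WIPI1, 0.373 for SQSTM1 and 0.59 for MAP1LC3B. Median centring gave 596 probes and 1 pathway gene lower, and turned GABARAPL2 to -0.018. Keeping only probes brighter than background in every channel gave 1342 probes higher of 5587 tested. This is 24%, beside 24.3% of 8852 in the reported fit, and WIPI1 could then not be tested. An adjusted p under 0.01 left 1353 probes higher and 468 lower and 1 pathway gene lower. Averaging arrays 1 with 3 and 2 with 4 gave 7 pathway genes lower. Leaving out each array in turn gave 854 to 2589 probes higher, 267 to 1465 lower, 4 to 6 members higher, 0 members lower, and 16 to 39 pathway genes higher and 0 to 7 lower, the fewest higher without array 4 (16) and array 3 (18). SQSTM1 was not called in 7 of 15 alternatives: without the dye term, with processed signals (adjusted p = 0.053), the series table (0.060), outlier spots kept (0.053), the stricter threshold, and without array 3 (0.119) or array 4 (0.148). GABARAP passed without array 2 (0.20, adjusted p = 0.044). GABARAPL2 could be fitted in 10 alternatives. No alternative moved the median of all probes by over 0.1. The cause of these changes was not tested. Slide and scan date were the same for all arrays and could not be fitted as a block. The call filter needs signal above background, and the arrays with the treated RNA in Cy5 had fewer such probes.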
